A study of Arabidopsis thaliana with 3 samples.

Results

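COR15A (AT2G42540), COR15B (AT2G42530), KIN1 (AT5G15960) and KIN2 (AT5G15970) are cold- and drought-induced genes of Arabidopsis thaliana that form 2 pairs of paralogs. They were taken by gene name or locus code, with earlier results of these data known. Each was represented by 1 spot with 1 listed gene, so the set holds 4 of the 9253 genes measured. The arrays set stem RNA of nst1-1 nst3-1 double mutants, which carry T-DNA insertions in NST1 and NST3, against stem RNA of wild-type plants. NST1 and NST3 encode NAC transcription factors that switch on secondary wall formation, and per the labels the mutant makes no secondary xylem in the inflorescence stem and hypocotyl. RNA came from the lowest 4 cm of stems that were 12 to 17 cm tall. All plants, mutant and wild type, were labelled as untreated and grew in 8 h of light and 16 h of dark, and no cold or drought treatment was given. The 3 mutant samples, called lines 1, 2 and 3 here, were described as independent lines and bear the same allele names. The labels do not say whether a sample pooled several plants, or whether the wild-type RNA was 1 extract or several, so the p-values cover only the spread between these arrays.

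COR15A and COR15B encode small, highly hydrophilic proteins of the chloroplast stroma. They are disordered in water, fold as cells lose water, and protect membranes during freezing. KIN1 and KIN2 (also called COR6.6) encode short hydrophilic proteins that share features with late embryogenesis abundant (LEA) proteins. Transcripts of all these genes are known to accumulate in cold, in drought and after abscisic acid. CBF (DREB1) factors act through the C-repeat/dehydration-responsive element of their promoters, and abscisic acid acts through bZIP factors on a separate element. Members of each pair lie next to each other in the gene table of assembly TAIR10.1, as COR15B and COR15A on chromosome 2 and as KIN1 and KIN2 on chromosome 5.

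Every array carried 1 mutant line and wild type in different dyes, with the mutant in Cy5 for lines 1 and 3 and in Cy3 for line 2. Values are log2 ratios of mutant over wild type, so a value below 0 is lower in the mutant. They rest on reading the deposited numbers as log10 of Cy5 over Cy3, which the sources used here do not state. With the opposite reading every direction would turn. Ratios of this kind carry no absolute level, so the level of a gene in the stem, and the tissue itself, were not checked through marker levels. The labels were not checked through the targeted genes, since the annotation names no spot for NST1 or NST3. Across genes the arrays of lines 2 and 3 correlated at 0.784, against 0.488 for lines 1 and 2 and 0.477 for lines 1 and 3. Over all genes the median of the mean log2 ratio was 0.013 and the median SD over lines was 0.18. Tests are limma's moderated test of each gene's 3 ratios against 0, with Benjamini-Hochberg adjustment over all genes and a threshold of 0.05. By this rule 3.39% of genes were called, 2.6% as lower and 0.789% as higher. Higher genes made up 23.2% of the calls, 33.7% with arrays scaled to equal spread, 49.6% without line 1 and 4.35% with all spots fitted. The number of arrays, 3, limits the precision.

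COR15A was lower in the mutant on every array. As deposited, before the array with swapped dyes was turned, its log10 values were -0.449, 0.501 and -0.279 for lines 1, 2 and 3. As log2 ratios of mutant over wild type these were -1.49, -1.66 and -0.93. Lines 1 and 2 lay close together and line 3 was nearest to wild type, at 1.90-fold lower, against 2.81-fold lower for line 1 and 3.17-fold lower for line 2. The share of genes with a still lower ratio was 1.66% on the array of line 1, 0.973% for line 2 and 3.08% for line 3. COR15A fell by 1.36 ± 0.39 on the log2 scale (SD, n = 3 lines), which is 2.57-fold (limma adjusted p = 0.0469), with a 95% interval of -1.84 to -0.88. It was the gene at place 261 by p-value. In a stem sample, fewer cells that express a gene and less of its RNA per cell cannot be told apart.

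The call of COR15A lay close to the threshold. Its limma adjusted p was 0.198 with a dye term (log2 ratio -1.44), where limma called 0 genes (1592 at an unadjusted p under 0.05). The limma adjusted p of COR15A was 0.0863 with all spots, unnamed ones included, in the fit (-1.36). It was 0.0519 without line 1 (-1.30), 0.280 without line 2 (-1.21) and 0.0924 without line 3 (-1.58), and in the last 2 of these fits limma called 0 genes of any kind (1373 and 1430 at an unadjusted p under 0.05).

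**Figure D1:**
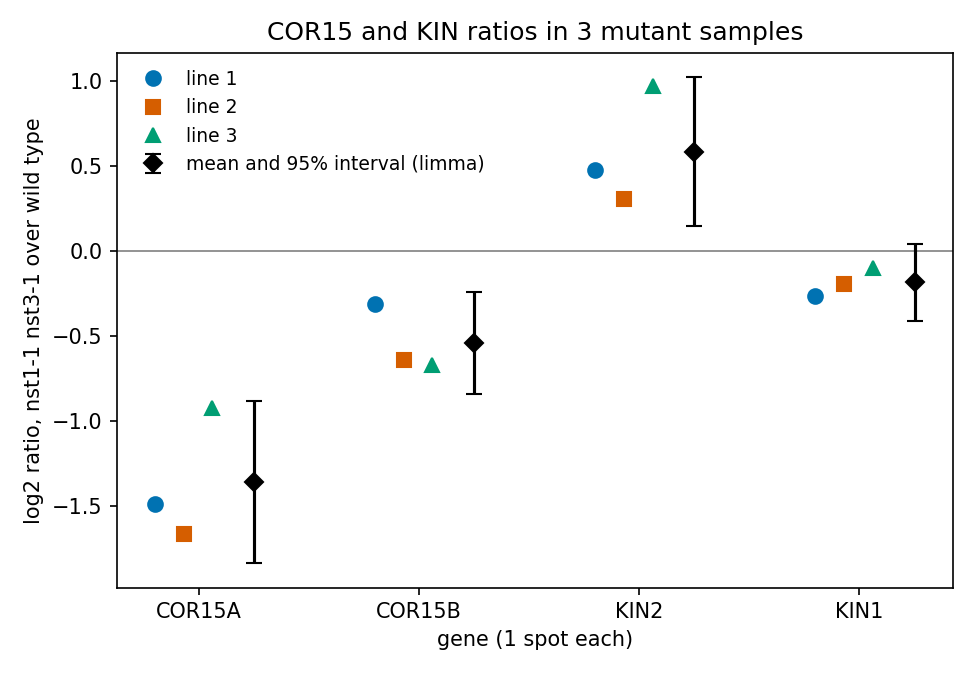
Log2 ratios of mutant over wild type (vertical axis) for COR15A, COR15B, KIN2 and KIN1, 1 point for each of the 3 lines, with the mean and its 95% interval from limma in black. All points of COR15A, COR15B and KIN1 lie below 0 and all points of KIN2 lie above it, and COR15A is the gene farthest from 0.

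COR15B, the neighbour and paralog of COR15A, had the same sign and a smaller ratio. Its log2 ratios were -0.31, -0.64 and -0.67 in lines 1, 2 and 3. Here lines 2 and 3 were close together, and line 1 was nearest to wild type. The share of genes with a still lower ratio was 19.3%, 6.57% and 5.26% on these arrays. The mean was -0.54 ± 0.20 (SD, n = 3 lines; limma adjusted p = 0.0784), a 1.46-fold lower value that did not pass the test, with a 95% interval of -0.84 to -0.24. Without line 1 the mean was -0.66 and it passed (limma adjusted p = 0.0346). That fit called 574 of all genes higher and 583 lower, against 73 and 241 with all lines. Without line 2 or line 3 the limma adjusted p was 0.337 and 0.327, in fits that called 0 genes higher and 0 lower.

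Within each array COR15A had the lower ratio of the pair. COR15A minus COR15B was -1.18, -1.02 and -0.26 on the log2 scale in lines 1, 2 and 3. The gap was widest in line 1, where COR15A was low and COR15B near wild type, and narrowest in line 3, where COR15A was least reduced and COR15B most. The mean difference was -0.82 ± 0.49 (SD, n = 3 lines), which is a 1.76-fold larger decrease for COR15A. An exact sign-flip permutation test over the lines, two-sided, gave p = 0.25, which is the smallest value this test can give with 3 arrays and is fixed once all differences share a sign. A limma fit, chosen after the values had been seen, tested the within-array differences of all 3427 pairs of measured genes that follow each other in the gene table, and called 4.9% of the pairs. There COR15A minus COR15B had a 95% interval of -1.43 to -0.21, an unadjusted limma p of 0.0188 and a limma adjusted p of 0.113, and was not called. The lines did not rank alike for the paralogs, since line 3 was the least reduced for COR15A and the most reduced for COR15B.

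KIN2 was the one member with ratios above 0. Its log2 ratios were 0.48, 0.31 and 0.97 in lines 1, 2 and 3, or 1.39-fold, 1.24-fold and 1.96-fold higher than wild type. Line 3 stood apart, with 1.74% of genes at a higher ratio on its array, against 15.0% for line 1 and 20.5% for line 2. The mean was 0.59 ± 0.35 (SD, n = 3 lines), which is 1.50-fold and did not pass the test (limma adjusted p = 0.125). The 95% interval was 0.15 to 1.02.

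KIN1, its tandem paralog, stayed closest to wild type of the members. Its log2 ratios were -0.27, -0.19 and -0.10 in lines 1, 2 and 3, all slightly below 0. The mean was -0.18 ± 0.085 (SD, n = 3 lines; limma adjusted p = 0.253), and the gene was not called. The 95% interval of -0.41 to 0.04 leaves room for at most a 1.33-fold decrease and a 1.03-fold increase. Its arrays differed less than those of the other members, as 17.6% of genes had a smaller SD, against 53.6% for COR15B, 77.7% for KIN2 and 81.5% for COR15A.

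KIN2 had the higher ratio of its pair on every array. KIN2 minus KIN1 was 0.74, 0.50 and 1.07 on the log2 scale in lines 1, 2 and 3, with a mean of 0.77 ± 0.29 (SD, n = 3 lines), a 1.71-fold difference between their ratios. The exact sign-flip permutation test, two-sided, again gave its smallest value, p = 0.25. In the limma fit over pairs the 95% interval was 0.32 to 1.22, with an unadjusted limma p of 0.00765 and a limma adjusted p of 0.0821, so this difference was not called either. KIN2 and KIN1 had opposite signs on all arrays, while COR15A and COR15B shared a sign on all arrays. The paralogs of each pair are alike in sequence. Probe sequences were not analysed here, and the part of cross-hybridisation between paralogs in these ratios was not tested.

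**Figure D2:**
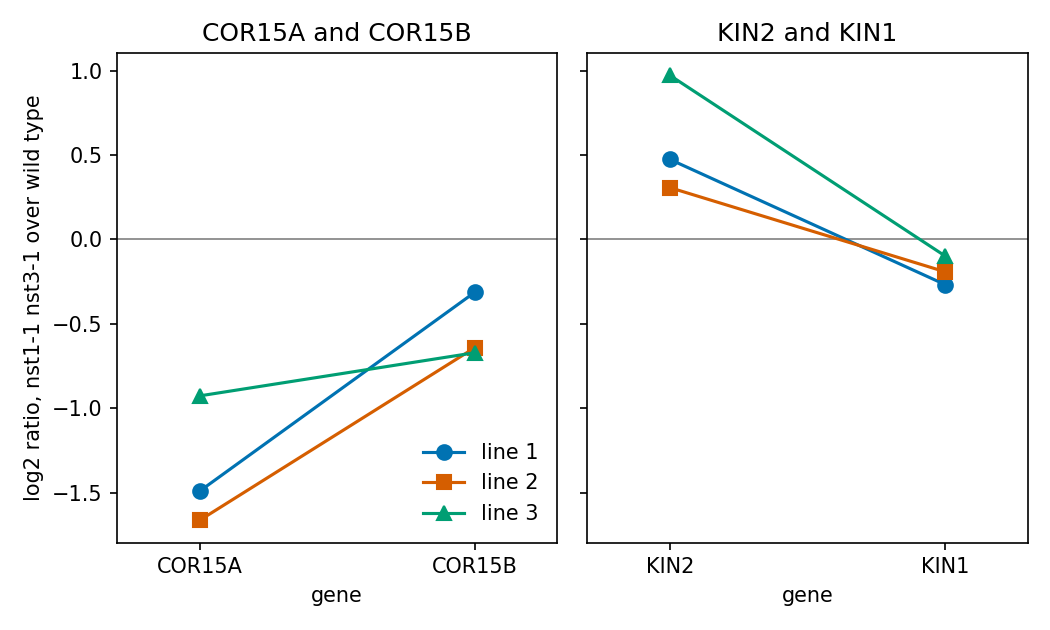
Log2 ratios of mutant over wild type (vertical axis, shared) of the paralogs COR15A and COR15B on the left and KIN2 and KIN1 on the right, with a line joining the values of each array. All 3 lines slope up between COR15A and COR15B, least in line 3, and all slope down between KIN2 and KIN1.

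Read across both pairs, the order of mean log2 ratios was COR15A (-1.36), COR15B (-0.54), KIN1 (-0.18) and KIN2 (0.59). The lines of COR15A, which ended at -0.93, did not overlap those of COR15B, which began at -0.67. Such ranges are a description only, and the within-array difference of this pair was not called (limma adjusted p = 0.113). COR15B and KIN1 were separated by the narrowest gap, between -0.31 for the highest line of COR15B and -0.27 for the lowest of KIN1. All 4 genes had 1 sign on all 3 arrays, which was the case for 50.2% of all genes measured. KIN2 was above 0 on every array, as were 26.2% of all genes, and the other 3 were below 0 on every array, as were 23.9%. Of the 4, 1 was called, against 3.39% of all genes, and 3 had an unadjusted limma p under 0.05 (all except KIN1), against 25.8%.

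The array with swapped dyes gave a lower ratio than the mean of the others for each member, most so for COR15A and KIN2 and least for KIN1. COR15A had -1.66 in line 2, against a mean of -1.21 for lines 1 and 3, and KIN2 had 0.31 against 0.72. For COR15B the values were -0.64 and -0.49, and for KIN1 -0.19 and -0.18. Dye and line cannot be told apart here, as the swapped orientation was used for line 2 only. With a dye term the means were -1.44 for COR15A, -0.57 for COR15B, -0.19 for KIN1 and 0.52 for KIN2, each with the same sign as before.

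**Figure D3:**
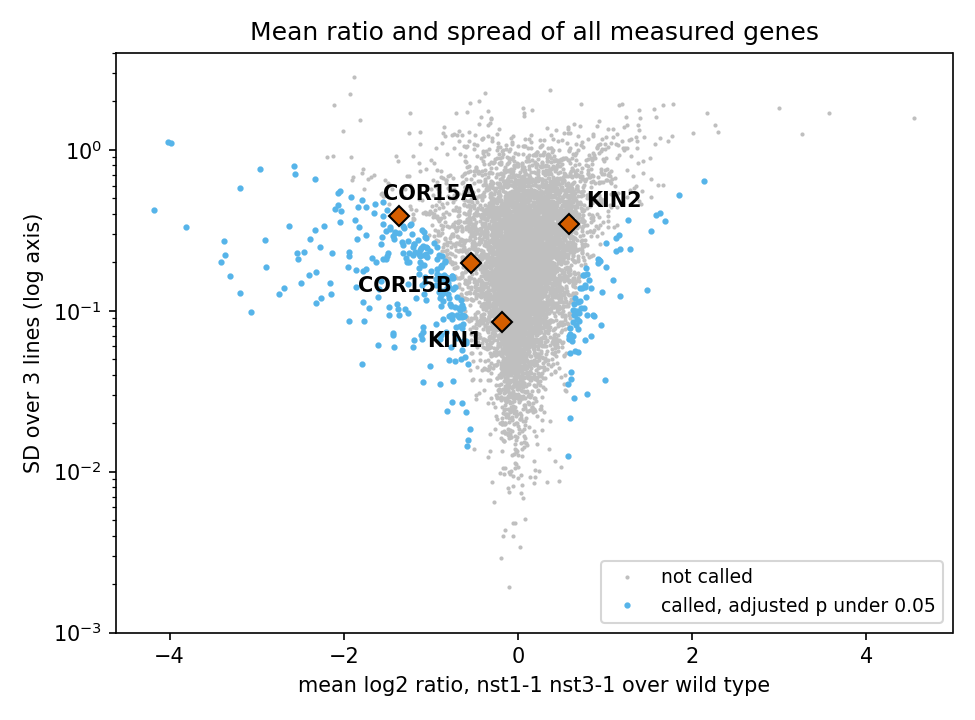
Mean log2 ratio of mutant over wild type (horizontal axis) against the SD over the 3 lines (vertical axis, log scale) for all measured genes, with called genes in blue, the others in grey and the 4 cold and drought genes as orange diamonds. 22 genes with an SD under 0.001 are not drawn. COR15A lies near the upper edge of the called genes, and COR15B, KIN1 and KIN2 lie among those not called.

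Among the other measured genes of the cold response none was called lower. Of 27 genes listed as CBF and COR targets, the 4 members included, 8 were measured. By limma 1 was called lower (COR15A), 0 were called higher and 7 were not called, beside 2.6% of all genes lower and 0.789% higher. At an unadjusted limma p under 0.05, 2 were lower (COR15A and COR15B) and 1 was higher (KIN2), all of them members. Over all genes 25.8% reached this in either direction. The median log2 ratio of the list was -0.04, beside 0.013 over all genes. COR47, a dehydrin gene induced in parallel with the COR15 and KIN genes in cold, measured 0.26, 0.05 and -0.09 in lines 1, 2 and 3, which lies on both sides of 0. COR27, a cold-induced gene under clock control, was spread more widely at 0.30, -0.58 and -0.19. STZ (ZAT10), a zinc-finger repressor of stress responses, was at 0.72, 0.57 and -0.08, and AT4G33980 at 1.03, 0.35 and -0.03, so that line 1 was highest for each of these genes, COR47 included. Their limma adjusted p-values were between 0.269 and 0.700 and none was called.

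Of 20 listed CBF factors and regulators only GI, a clock-associated protein that also acts in flowering and cold tolerance, was measured. GI had log2 ratios of 0.94, 0.62 and 0.48, with a mean of 0.68 ± 0.24 (SD, n = 3 lines; limma adjusted p = 0.067), and was not called. With arrays scaled to equal spread its limma adjusted p was 0.0455, and without line 1 it was 0.0463. These fits called 175 and 574 of all genes higher, against 73 in the main fit. No spot was listed for the CBF genes themselves, for any of 35 genes of abscisic acid synthesis and signalling or for any of 23 other drought genes, and these were not analysed here.

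The list of dehydrins and LEA proteins, to which COR15 and KIN proteins also belong, had 16 of 30 genes measured. Of these, 1 rose, 1 fell (COR15A, counted above as well) and 14 were not called, beside 0.789% of all genes higher and 2.6% lower. The median log2 ratio was 0.026, beside 0.013 over all genes. The gene that rose was AT5G53820, unnamed in the gene table and listed here as a LEA relative of KIN1 and KIN2. Its log2 ratios were 0.67, 0.71 and 0.98 in lines 1, 2 and 3, with the highest value in line 3, as for KIN2. The mean was 0.79 ± 0.17 (SD, n = 3 lines), which is 1.73-fold (limma adjusted p = 0.0469). The call ended with scaled arrays (limma adjusted p = 0.0545) and with all spots fitted (0.0783). It also ended with a dye term (0.201) and without line 2 (0.280) or line 3 (0.231), in fits that called 0 genes higher or lower. Without line 1 the gene stayed called (limma adjusted p = 0.0377), in a fit that called 574 of all genes higher.

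Other genes listed as relatives of KIN1 and KIN2 were not called. AT5G38760, which the naming rule did not pick and which is given because of this relation, measured 0.20, 0.29 and 0.22 (limma adjusted p = 0.164). AT3G02480 measured 0.24, 0.27 and -0.46, with line 3 opposite to the others. HIRD11 (AT1G54410), a small dehydrin, had the lowest mean of the list after COR15A, at -0.90 ± 0.44 (SD, n = 3 lines; limma adjusted p = 0.0852), with values of -0.41, -1.24 and -1.06. HIRD11 was not called with all lines and passed without line 1 (-1.15, limma adjusted p = 0.0232), as COR15B did. The fit without line 1 called 583 of all genes lower, against 241 with all lines. AT3G22490 was close to wild type at 0.04 ± 0.12.

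**Figure D4:**
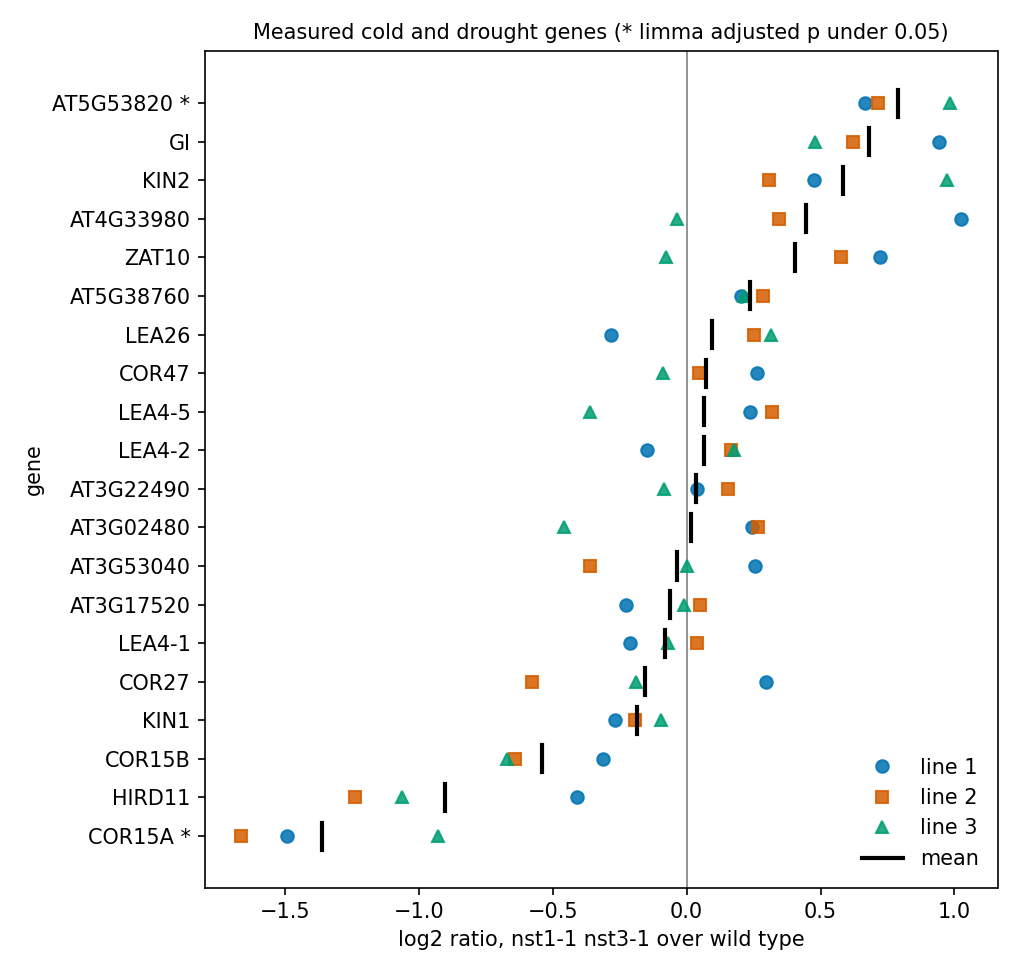
Log2 ratios of mutant over wild type (horizontal axis) of the 20 measured genes of the cold and drought lists (1 per row, sorted by mean), 1 point for each line and a black bar at the mean. AT5G53820 at the top and COR15A at the bottom are the called genes, and KIN2 and COR15B lie near opposite ends.

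Taking the 5 cold and drought lists as one, 20 of 128 genes were measured, with 1 higher, 1 lower and 18 not called, beside 0.789% of all genes higher and 2.6% lower. The median was 0.05, beside 0.013 over all genes, and 12 means were above 0 and 8 below. Without the 4 members, 16 genes remained, of which 1 was higher and 0 were lower by limma, with a median of 0.065. At an unadjusted limma p under 0.05, 3 were higher (AT5G53820, GI and AT5G38760) and 1 was lower (HIRD11). Over all genes 25.8% reached this in either direction. The members and the lists were compiled with earlier results of these data known, and the counts describe the lists without testing them.

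Of the measured markers of green tissue, 1 fell, beside 2.6% of all genes called lower. COR15A and COR15B act in chloroplasts, and 3 of 17 listed light-harvesting and Rubisco genes, which mark green cortex, were measured. All 3 belong to the LHCB4 family, so no Rubisco gene of the list was measured. LHCB4.3 fell, with log2 ratios of -0.80, -0.88 and -0.57 (limma adjusted p = 0.0483), and was least reduced in line 3. LHCB4.1 measured -0.36, -1.18 and -1.05 and LHCB4.2 measured 0.10, -0.94 and -1.05, neither called, and both were nearest to wild type in line 1. Across all genes, too, lines 2 and 3 were the most alike, with a correlation of 0.784. The means of these 3 genes ran between -0.86 and -0.63. Their part in the ratios of COR15A and COR15B was not tested. Of 5 listed phloem genes, 2 were measured and not called, SWEET11 at 2.28, 0.16 and -0.50 and CLE41 at -0.10, -0.26 and 0.40. The measured gene of the 6 for epidermis and cuticle, WSD1, was at 0.06, -0.11 and -0.06.

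Genes beside the pairs on the chromosome were not called. Within 3 places of a member in the order of protein-coding genes, 7 further genes were measured. By limma 0 of them were called, beside 3.39% of all genes, and 2 had an unadjusted p under 0.05, beside 25.8% of all genes. Their mean log2 ratios ran from -0.73 to 0.36. AT2G42520, whose interval in the gene table overlaps that of COR15B, measured 0.34, 0.12 and 0.022, opposite in sign to COR15B on every array. Beyond COR15A, AT2G42560 measured -0.61, 0.59 and 0.18, and TBL39, a gene of the TRICHOME BIREFRINGENCE-LIKE family, -0.35, 0.49 and 0.21. Next to KIN1, AT5G15950 was the lowest neighbour at -0.59, -0.91 and -0.68 (limma adjusted p = 0.0502), and AT5G15940 lay near 0 at -0.09, 0.11 and -0.04. Beyond KIN2, AT5G15980 measured 0.75, 0.14 and 0.20, and AT5G16010 measured -0.48, -0.62 and -0.32 (limma adjusted p = 0.0784). Over all 3427 pairs of measured genes that follow each other in the table, the mean log2 ratios differed by a median of 0.29, and 52.5% of pairs shared a sign. A smaller difference than that of COR15A and COR15B was found in 88.4% of these pairs, and than that of KIN2 and KIN1 in 86.6%, given as a description.

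Likeness of pattern was measured as the Euclidean distance between the log2 ratios of the 3 arrays, with no test. Closest to COR15A were AT1G61740, at -1.47, -1.48 and -1.02 (distance 0.20), and AT2G04850, at -1.58, -1.51 and -1.02 (distance 0.20), both called lower. COR15B was at place 548 in closeness to COR15A, with a distance of 1.58. Closest to COR15B were AT1G30820 (distance 0.037) and AT1G01320 (distance 0.070), and closest to KIN1 were AT3G09310 (0.029) and AT2G47550 (0.030). Closest to KIN2 were AT5G50110, at 0.44, 0.32 and 0.88 (distance 0.099), and AT1G61420, at 0.55, 0.20 and 0.88 (distance 0.16). KIN1 was at place 6723 in closeness to KIN2, although their distance of 1.39 was smaller than that between COR15A and COR15B. A place depends on how many genes lie near the member, and seen from COR15B, COR15A was at place 7460. Many genes lie near any point close to 0, so small distances to KIN1 and COR15B single out little.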

How the data were processed

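The authors deposited 1 value per spot and array, read here as the log10 ratio of Cy5 over Cy3, for 22236 spots of 3 two-colour arrays. The lowest value is exactly -2, from which the log10 base was inferred. Base, channel order, scanner, background correction and dye normalization are not given in the sources used here. Scale and direction are therefore not known from these sources, and those given here rest on the reading as log10 of Cy5 over Cy3. The array medians show that the values were centred. Spots were named through the platform annotation, updated by Entrez identifier against the TAIR10.1 gene table (9317 of 9335 spots with 1 listed gene matched). A further 40 spots with several genes and 12861 with none stayed unnamed. Ratios of the dye-swapped array (line 2) changed sign, values were converted to log2, and spots of a gene were averaged (79 genes), giving 9253 genes. limma (version 3.58.1, R 4.3.3) tested each gene against 0 (lmFit, eBayes), after being tested on simulated data. Wild type has no separate estimate of spread. Members and lists were chosen with earlier results of these data known. Text names the members, the 2 genes nearest each, neighbours within 3 places, and list genes (all where at most 8 were measured, otherwise those called, the 4 with the largest and the 2 with the smallest absolute means). Paralog differences had an exact sign-flip test and, added later, a limma fit over neighbouring gene pairs. Centring, scaling, zeros, the variance prior, a dye term, all spots, the log base and left-out lines were varied. No sequence of a gene, protein or probe was used here, so promoter motifs and protein identity were not analysed.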

Additional observations from a re-analysis of the deposited data

How the results depend on the processing

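No alternative turned the direction of COR15A, COR15B, KIN1, KIN2 or of either paralog difference. For a left-out line, the dye term, scaling or another base this was fixed, since the members and both differences had 1 sign on all arrays. The variance prior, fitting all spots and leaving out zeros left the log2 ratio of each member unchanged. Centring cancels in a difference within an array, so only centring of the members could have turned a direction. For what follows, the cause was not tested. Genes called higher and lower numbered 73 and 241, but 0 and 0 by limma with the dye term (1592 genes at an unadjusted p under 0.05). They numbered 3 and 66 with all spots fitted, where both the adjustment and the variance prior covered all spots. Scaling gave 175 higher and 344 lower (33.7% higher, against 23.2%), and leaving out values of exactly 0 gave 140 higher. Without 1 line the counts ran from 0 to 574 higher and 0 to 583 lower, with the zeros in the fits without line 2 (1373 at an unadjusted p under 0.05) and without line 3 (1430). COR15A lost its call with the dye term (-1.44) and with all spots fitted (-1.36), and its log2 ratio ran from -1.58 to -1.21 without 1 line, where none of the fits called it. COR15B ran from -0.66 to -0.48 and passed without line 1. KIN1 and KIN2 were never called. Read as log2, the deposited values gave -0.41 for COR15A, -0.16 for COR15B, -0.056 for KIN1 and 0.18 for KIN2, with the same p-values, and -0.25 for COR15A minus COR15B and 0.23 for KIN2 minus KIN1. The cold and drought lists held 1 higher and 1 lower gene, 0 and 0 with the dye term or all spots fitted, and 0 to 2 of each without 1 line; without line 1 the lower ones were COR15B and HIRD11 and the higher ones GI and AT5G53820. No paired analysis was possible because the arrays form 1 group, each already a mutant and wild-type pair. Signal over background was not judged, as spot intensities were not used here.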
